A study of Mus musculus with 6 samples.

Results

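The receptors described here are 9 surface receptors from families named for binding carbohydrates, though not every member does. They are the C-type lectins Clec4e, Clec4d, Clec4n, Clec7a, Clec5a and Clec12a, and the sialic acid-binding Siglecs Cd22, Cd33 and Siglece. They were taken by name, and all 9 were found among the 17872 genes of the deposited count table. Their mRNA was followed in BV2 cells, an immortalised line derived from mouse microglia, the resident macrophages of the brain. RNA sequencing libraries came from 3 wild-type samples (controls) and 3 samples labelled Tfam knockout, made with CRISPR-Cas9. Both groups carry the label "none" for treatment, while the protocol given for every sample describes culture in puromycin at 2 µg/mL after the knockout, so it is not clear whether the controls received it. Whether the edited population was 1 clone or a pool, what the control cells carried and whether replicates were separate cultures is left unsaid by the labels. P-values therefore set the difference between the groups only against the spread among these samples, and that spread may be technical. They may be too small for separate cultures or clones.

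Mincle (Clec4e), MCL (Clec4d) and Dectin-2 (Clec4n) bind glycolipids and mannose-rich structures of mycobacteria and fungi, and Mincle also binds material released by dead cells. They signal through the FcR gamma chain (Fcer1g), whose tyrosine motif recruits the kinase Syk and then the CARD9-BCL10-MALT1 complex. Dectin-1 (Clec7a) binds beta-glucan and carries its own tyrosine motif, and MDL-1 (Clec5a) signals through DAP12 (Tyrobp) and DAP10 (Hcst). Clec12a, a receptor for uric acid crystals, and the Siglecs Cd22 and Siglece carry inhibitory motifs that recruit the phosphatases SHP-1 (Ptpn6) and SHP-2 (Ptpn11). Cd33, a Siglec whose human gene is linked to Alzheimer's disease, is mainly myeloid, and Cd22 is best known from B cells and from ageing microglia.

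Total counts ran from 14642397 to 28418133 per control library and from 13850691 to 20889786 per knockout-labelled library. The targeted gene did not mark the groups: Tfam, the packaging and transcription factor of mitochondrial DNA, was at 38.2 ± 1.01 CPM in controls and 42.3 ± 1.15 CPM in the knockout-labelled libraries (adjusted p = 0.193, edgeR). It was called higher in the knockout-labelled libraries with library totals and with limma on the deposited log2 table (adjusted p from 0.0349 to 0.37 over 15 alternatives). CPM are read counts scaled to a common library size with TMM factors, and values after ± are SDs over the 3 libraries of a group unless named as an SE. Mitochondrial genes took 3.52% to 4.31% of counts in controls and 1.37% to 1.42% in the knockout-labelled libraries. Of 13 markers of microglia and macrophages, 10 were in the table, with a summed level of 2688 to 2925 CPM in controls and 2148 to 2326 CPM in the knockout-labelled libraries. They did not move together: Csf1r (501 to 182 CPM), Cd68, Spi1 and Cx3cr1 were among those that fell, Adgre1 rose (265 to 406 CPM), and Ptprc and Aif1 did not pass. The microglial markers Tmem119 (8 to 11 counts in controls, 0 to 8 in the others) and Sall1 (0 to 7 counts) were at or near 0. P2ry12, Fcrls and Itgam were not analysed here.

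All 9 receptors passed the test: with the knockout label, 4 were higher and 5 lower (edgeR's quasi-likelihood test, adjusted p below 0.05). The background is high: 44.2% of 13403 genes tested were called, 21.3% as higher and 22.9% as lower. The groups did not overlap for any of the 9 receptors, as for 52.9% of all genes tested. The median log2 fold change of the receptors was -0.36, against 0.0012 for all genes tested, and single values ran from -1.39 (Cd22) to 2.00 (Clec4e). The 3 receptors that pair with the FcR gamma chain rose, while Dectin-1, MDL-1, Clec12a, Cd33 and Cd22 fell and Siglece, at very low counts, was higher. Siglece passed the count filter only through the knockout-labelled libraries, so its call is no independent support for an increase. For Clec4e, Clec4d, Clec4n, Clec7a, Cd22 and Cd33 the call was kept under every alternative run; it was lost under at least 1 for Clec5a, Clec12a and Siglece. Without control replicate 2, only 3 receptors were called lower. In these bulk samples of a cell line, fewer cells expressing a gene and less RNA per cell cannot be told apart.

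**Figure D1:**
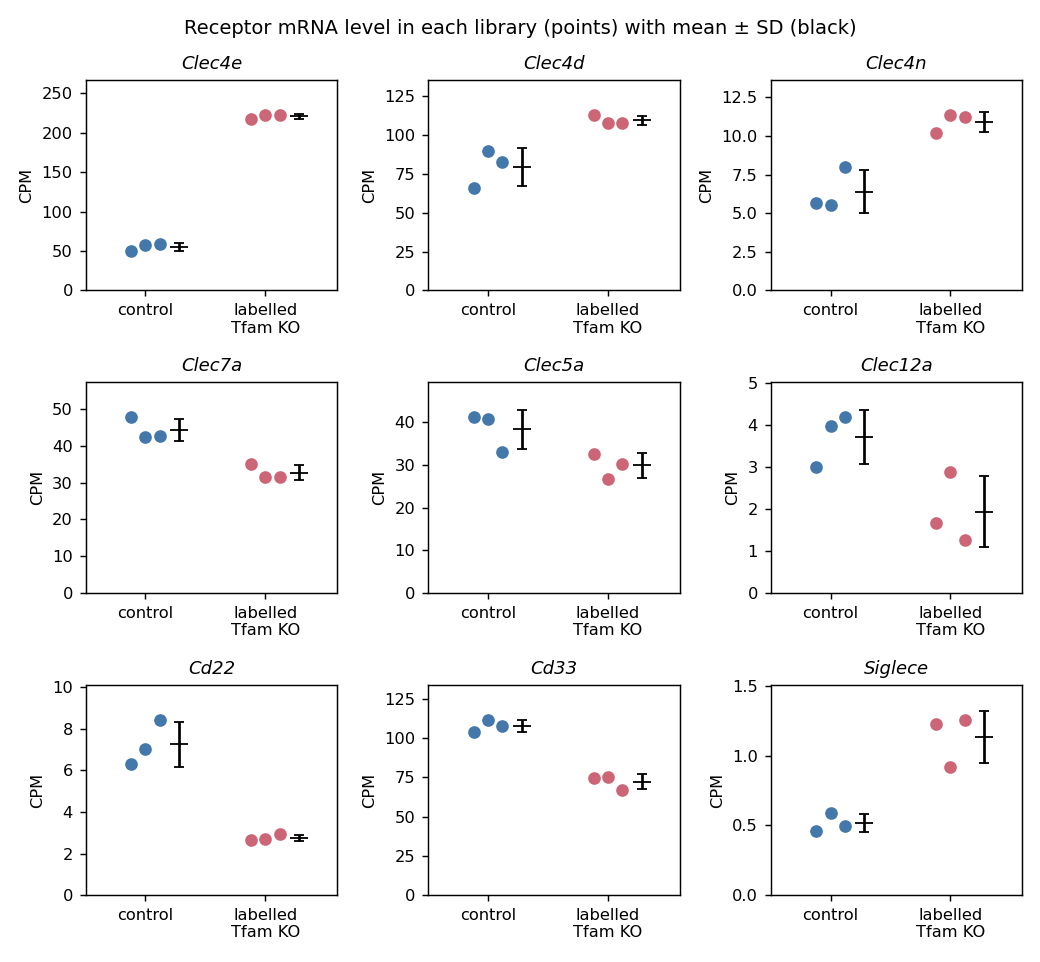
Level of each of the 9 receptor mRNAs in CPM (vertical axes, each starting at 0) in the 3 control (blue) and 3 labelled Tfam knockout (red) libraries, with mean ± SD in black. No panel has overlapping groups, and Clec4e stands at 49.5 to 58.6 CPM in controls against 217 to 223 CPM in the knockout-labelled libraries.

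Clec4e, the receptor Mincle, had the largest increase among the 9. Its levels were 49.5, 58.1 and 58.6 CPM in control replicates 1 to 3 and 217, 223 and 223 CPM in labelled knockout replicates 1 to 3. Every knockout-labelled library was far above every control, and both groups were tight. The increase was 4.0-fold, with a log2 fold change of 2.00 ± 0.0802 (SE) and an adjusted p of 4.37e-12 (edgeR). In reads, this was 1392, 891 and 828 per control library against 4602, 3879 and 3194.

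Clec4d, the receptor MCL, is a partner of Mincle on the cell surface and lies next to Clec4e on the chromosome. It was at 66.1, 89.7 and 82.7 CPM in controls and at 113, 108 and 108 CPM in the knockout-labelled libraries. The lowest knockout-labelled library was above the highest control, but the controls were spread. Its log2 fold change was 0.47 ± 0.0946 (SE, adjusted p = 0.0007, edgeR), or 1.38-fold. Clec4n, the mannan receptor Dectin-2, was at 5.69, 5.54 and 8.0 CPM in controls and 10.2, 11.4 and 11.2 CPM in the knockout-labelled libraries. Control replicate 3 was the highest of its group and still below all 3 knockout-labelled libraries. The increase was 1.72-fold (log2 fold change 0.78 ± 0.168, SE; adjusted p = 0.00112, edgeR).

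Clec4n, Clec4d and Clec4e follow each other directly in the RefSeq gene order of chromosome 6, with 0 genes between neighbours. Clec12a and Clec7a lie together further along the same chromosome, with 5 genes between them. The sequences upstream of Clec4e and Clec4d, a neighbouring pair that rose, and of Clec12a and Clec7a, a pair that fell, are shown to set receptors that changed in opposite directions side by side. Each is the 250 bases before the annotated start in RefSeq on GRCm38.p6, read 5′ to 3′ on the gene's strand, with capitals marking matches to the motifs named after them. The authors' counts were made on another build, GRCm39. The Clec4e stretch is chr6:123289872-123290121 on the minus strand, and the Clec4d stretch is chr6:123261857-123262106 on the plus strand. The Clec12a stretch is chr6:129349994-129350243 on the plus strand, and the Clec7a stretch is chr6:129472780-129473029 on the minus strand.
Clec4e: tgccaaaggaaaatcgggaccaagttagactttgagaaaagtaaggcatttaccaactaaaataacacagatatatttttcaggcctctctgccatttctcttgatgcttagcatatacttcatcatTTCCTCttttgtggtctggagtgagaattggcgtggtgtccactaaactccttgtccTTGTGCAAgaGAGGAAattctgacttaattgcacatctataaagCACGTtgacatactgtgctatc
Clec4d: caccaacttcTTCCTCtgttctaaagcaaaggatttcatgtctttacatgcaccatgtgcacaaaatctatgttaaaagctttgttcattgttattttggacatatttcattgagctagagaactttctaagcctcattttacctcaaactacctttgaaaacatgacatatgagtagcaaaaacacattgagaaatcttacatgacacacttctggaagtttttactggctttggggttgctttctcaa
Clec12a: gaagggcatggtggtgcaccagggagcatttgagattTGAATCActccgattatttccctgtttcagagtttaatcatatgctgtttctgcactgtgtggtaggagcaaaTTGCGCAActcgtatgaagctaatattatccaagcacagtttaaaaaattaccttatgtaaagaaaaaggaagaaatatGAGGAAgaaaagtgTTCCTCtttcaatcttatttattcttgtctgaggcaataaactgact
Clec7a: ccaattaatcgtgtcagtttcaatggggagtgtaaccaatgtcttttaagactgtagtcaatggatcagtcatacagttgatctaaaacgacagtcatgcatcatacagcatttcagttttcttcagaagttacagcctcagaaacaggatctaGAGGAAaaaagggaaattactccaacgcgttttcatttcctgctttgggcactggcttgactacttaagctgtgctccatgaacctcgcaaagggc

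Of the 9 receptors, 8 matched an entry of the RefSeq table, all but Clec4n. Both strands of these stretches were searched for 6 motifs: the C/EBP motif TTNNGCAA, the AP-1 motif TGANTCA, the PU.1 core GAGGAA, the interferon response motif, the hypoxia response core ACGTG and the NF-kB consensus. The PU.1 core, the recognition core of a macrophage master regulator, was found upstream of 7 of 8 receptors, all but Cd22, and in 23.3% of all 32851 stretches of this length. The C/EBP motif was found upstream of Clec4e, 66 to 59 bases before the start, and upstream of Clec12a, 140 to 133 bases before it, and in 9.56% of all stretches. The first of these genes rose and the second fell. In Clec4e the C/EBP match and a PU.1 core are separated by a pair of bases and do not overlap. The hypoxia response core was found upstream of Clec4e only among the 8 (16.6% of all stretches). The AP-1 motif, searched loosely with any base in the middle, was found upstream of Clec12a only (6.75%), as TGAATCA. The NF-kB consensus (3.90%) and the interferon response motif (2.98%) were in none of the 8, which says only that these letters are not in this window.

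Clec7a, the beta-glucan receptor Dectin-1, was lower in the knockout-labelled libraries. Levels were 47.7, 42.5 and 42.7 CPM in controls and 35.0, 31.5 and 31.5 CPM in the knockout-labelled libraries, and the groups were well apart. The log2 fold change was -0.44 ± 0.094 (SE, adjusted p = 0.00105, edgeR). This is opposite in sign to Clec4e, Clec4d and Clec4n, with which Dectin-1 shares the Syk and CARD9 relay.

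Clec5a, the DAP12-coupled receptor MDL-1, was at 41.2, 40.8 and 33.0 CPM in controls and 32.7, 26.8 and 30.1 CPM in the knockout-labelled libraries. Control replicate 3 lay just above labelled knockout replicate 1, so the groups nearly touched. Its log2 fold change was -0.36 ± 0.11 (SE, adjusted p = 0.0127, edgeR). The call was lost with library totals (-0.26, adjusted p = 0.0593) and with limma on the deposited log2 table, and without control replicate 1 or 2 or labelled knockout replicate 2 (adjusted p up to 0.0634).

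Clec12a, the inhibitory receptor for uric acid crystals, had few reads: 84, 61 and 59 counts in controls and 35, 50 and 18 in the knockout-labelled libraries. These are 2.99, 3.98 and 4.18 CPM against 1.65, 2.87 and 1.26 CPM. Labelled knockout replicate 2 came close to control replicate 1, and the other libraries were further apart. The log2 fold change was -0.92 ± 0.307 (SE, adjusted p = 0.0222, edgeR). The call was lost without control replicate 2 or 3 or labelled knockout replicate 1 or 3 (adjusted p up to 0.09). A stretch of about 100 bases of its transcripts is at least 95% identical to transcripts of 14 other genes, so part of its count is uncertain.

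Cd33 was the most abundant of the 3 Siglecs in counts. It was at 104, 112 and 107 CPM in controls and 74.6, 75.3 and 66.7 CPM in the knockout-labelled libraries. Every control was well above every knockout-labelled library. The log2 fold change was -0.57 ± 0.076 (SE, adjusted p = 1.05e-05, edgeR).

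Cd22 had the largest decrease among the 9, from 6.29, 7.04 and 8.42 CPM in controls to 2.64, 2.70 and 2.93 CPM in the knockout-labelled libraries. Raw counts were 177, 108 and 119 against 56, 47 and 42. The knockout-labelled libraries were nearly alike, and the controls were more spread. Its log2 fold change was -1.39 ± 0.205 (SE, adjusted p = 3.47e-05, edgeR). An antisense gene, Gm29439, shares 479 exon bases with Cd22 in GENCODE release M21, and the library kit does not mark strand, so reads over that stretch, out of 5042 exon bases of Cd22, cannot be assigned to either gene. Gm29439 was not analysed here. Among B-cell markers, Cd79a (0 to 7 counts) and Pax5 (7 to 17 counts) were near 0 in both groups. Of the 8 B-cell markers, 4 were in the table, with a summed level of 70.6 to 86.8 CPM in controls and 76.6 to 79.5 CPM in the others, nearly all of it Cd37.

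Siglece, an inhibitory Siglec of mouse microglia and neutrophils, was at the edge of detection. It had 13, 9 and 7 reads per control library against 26, 16 and 18 per knockout-labelled library, or 0.462, 0.587 and 0.495 CPM against 1.23, 0.919 and 1.26 CPM. The groups were apart, but each count carries a large counting error. The log2 fold change was 1.15 ± 0.419 (SE, adjusted p = 0.0344, edgeR). All controls were below the level of the count filter, so Siglece entered the test only through the libraries where it is high. The call was lost with DESeq2 (adjusted p = 0.0993), without a filter on low counts, with the replicate number as a block, and when any library other than labelled knockout replicate 2 was left out (adjusted p up to 0.116). Of 8 neutrophil markers, 3 were in the table, with a summed level of 4.09 to 7.43 CPM in controls and 1.49 to 1.95 CPM in the knockout-labelled libraries. S100a8 fell (log2 fold change -2.35), and Camp and Ngp had 0 to 11 counts. For dendritic cells, 4 of 7 markers were in the table, with a summed level of 32.9 to 37.0 CPM in controls and 27.0 to 30.6 CPM in the others. For T and NK cells, 2 of 7 were, at no more than 0.637 CPM together. For other brain and stromal cells, 5 of 10 were, at 24.0 to 27.4 CPM in controls and 11.5 to 14.7 CPM in the others, mostly Mbp. The samples are labelled as a cell line, BV2, and whether any other cells were present was not tested.

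Per kilobase of exon, the receptors spanned a wide range. In controls, Clec4d was highest at 49.7 ± 7.59 CPM per kilobase, followed by Clec7a (16.8 ± 1.12), Cd33 (13.9 ± 0.49), Clec4e (11.2 ± 1.03), Clec5a (9.98 ± 1.21), Clec4n (4.51 ± 0.97), Cd22 (1.44 ± 0.214), Clec12a (0.672 ± 0.115) and Siglece (0.278 ± 0.0349). Neighbours in this order had separate ranges over the 3 libraries, except Clec4e and Clec5a. In the knockout-labelled libraries Clec4e stood second at 44.5 ± 0.644 CPM per kilobase, behind Clec4d at 68.4 ± 1.83 and ahead of Clec7a at 12.4 ± 0.755. The order went on with Cd33 (9.29 ± 0.618), Clec5a (7.78 ± 0.763), Clec4n (7.70 ± 0.452), Siglece (0.613 ± 0.101), Cd22 (0.547 ± 0.03) and Clec12a (0.349 ± 0.152). There, Clec5a and Clec4n overlapped, as did Siglece and Cd22. This order depends on the length used, and the longest coding transcript was tried in place of all exons after the data were seen. In controls, Clec4e (22.0 CPM per kilobase) then stood above Clec7a (19.5) and Cd33 (18.8), next after Clec4d (60.1). In the knockout-labelled libraries Clec4e (87.8) stood above Clec4d (82.6), Clec4n above Clec5a, and Siglece was last, below Clec12a and Cd22. Of the summed level of the 9 receptors per kilobase of exon, Clec4e held 10.3% ± 0.355 in controls and 29.4% ± 0.878 in the knockout-labelled libraries, and 15.8% ± 0.473 and 40.6% ± 1.01 with the other length. Clec4d held 45.7% ± 3.72 and 45.1% ± 0.498 of it per kilobase of exon, and 42.9% ± 3.37 and 38.2% ± 0.63 with the other length.

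Ratios of counts within a library do not depend on how libraries are scaled. The ratio of Clec4e to Clec4d counts was 0.749, 0.648 and 0.709 in controls and 1.93, 2.07 and 2.07 in the knockout-labelled libraries. The neighbouring pair thus differed in its change by 1.53 on the log2 scale (exact two-sided permutation p = 0.1, adjusted 0.12 over 6 pairs; 0.1 is the smallest that 3 against 3 can give). Clec4n and Clec4d were closer: their ratio was 0.0861, 0.0618 and 0.0967 in controls and 0.0905, 0.106 and 0.104 in the knockout-labelled libraries, with overlapping groups (exact permutation p = 0.2). Counts of Clec7a over Clec4e went from 0.965, 0.732 and 0.729 to 0.161, 0.142 and 0.142. Dectin-1 and Mincle reads were therefore near parity in controls and far apart in the knockout-labelled libraries. Cd22 over Cd33 changed by -0.81 on the log2 scale and Clec4e over Clec4n by 1.21, each with an exact permutation p of 0.1. Siglece over Cd33 was higher by 1.71 with the same p, but it rests on 7 to 26 Siglece reads per library. Siglece passed the count filter only through the knockout-labelled libraries, so its ratio is no independent support for a change.

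**Figure D2:**
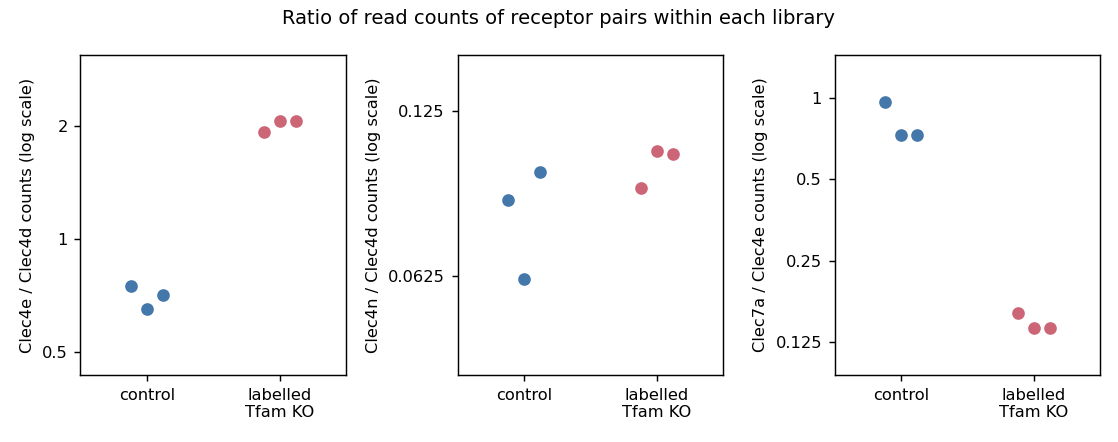
Ratio of read counts of 3 receptor pairs within each library (vertical axes are log scales), 3 control (blue) and 3 labelled Tfam knockout (red) libraries. Clec4e over Clec4d is at most 0.749 in controls and at least 1.93 in the others, Clec4n over Clec4d overlaps between the groups, and Clec7a over Clec4e falls to 0.161 or less.

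The adaptors that activating receptors need at the cell surface fell, while Syk and part of the CARD9 complex rose. Of 20 genes of the activating relay, all tested, 5 rose and 9 fell. Their median log2 fold change was -0.18, and 44.2% of all genes tested were called. Fcer1g, the chain that Mincle, MCL and Dectin-2 pair with, fell from 605 ± 98.6 to 377 ± 18.5 CPM (log2 fold change -0.68 ± 0.101, SE; adjusted p = 3.63e-05, edgeR). It was thus opposite in direction to these 3 receptors. Tyrobp (DAP12) fell from 176 ± 34.5 to 98.8 ± 15.3 CPM and Hcst (DAP10) from 9.61 ± 1.66 to 5.75 ± 1.19 CPM, the same direction as their receptor Clec5a. Syk, the kinase that docks on these chains, rose 1.31-fold (127 ± 7.55 to 166 ± 6.71 CPM). In the complex after it, Card9 fell by 0.65 on the log2 scale, while its partners Malt1, a paracaspase, and Bcl10 rose 1.56-fold and 1.23-fold. The exchange factor Vav2 rose 1.70-fold and the adaptor Blnk 1.23-fold. Plcg2, the phospholipase after Syk, fell from 467 ± 21 to 319 ± 7.68 CPM, and Prkcd, the kinase that phosphorylates CARD9, from 125 ± 7.68 to 88.6 ± 2.11 CPM. The other 3 that fell were Rasgrp3, Lat2 and Btk; these 5 were picked for mention with their values known.

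Genes of the inhibitory relay, through which Cd22, Siglece and Clec12a act, were also called in both directions. Of 15, all tested, 4 rose and 8 fell (their median log2 fold change was -0.32), against 44.2% called among all genes tested. SHP-1 (Ptpn6) fell from 316 to 239 CPM (log2 fold change -0.40), and SHP-2 (Ptpn11) rose from 77.6 to 100 CPM (0.36). The lipid phosphatase SHIP-1 (Inpp5d) fell by 0.60 on the log2 scale, Csk, the kinase that restrains Src-family kinases, by 0.58, and the ubiquitin ligase Cblb by 0.51. The largest change was in the adaptor Dok3, which fell from 183 to 64.9 CPM (-1.49, adjusted p = 3.13e-10, edgeR). The Src-family kinase Fyn rose 1.24-fold, while Lyn, the kinase best known for phosphorylating Cd22, was at 87.1 and 94.5 CPM and did not pass, except without control replicate 1 (adjusted p = 0.0354, edgeR). Socs3 was higher (1.30-fold) with overlapping groups. The call was lost for Fyn without control replicate 2, and for Socs3 without control replicate 1 or 2 or labelled knockout replicate 3, so that 2 of the list were called higher without control replicate 2. With library totals, 5 of the list were called lower.

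**Figure D3:**
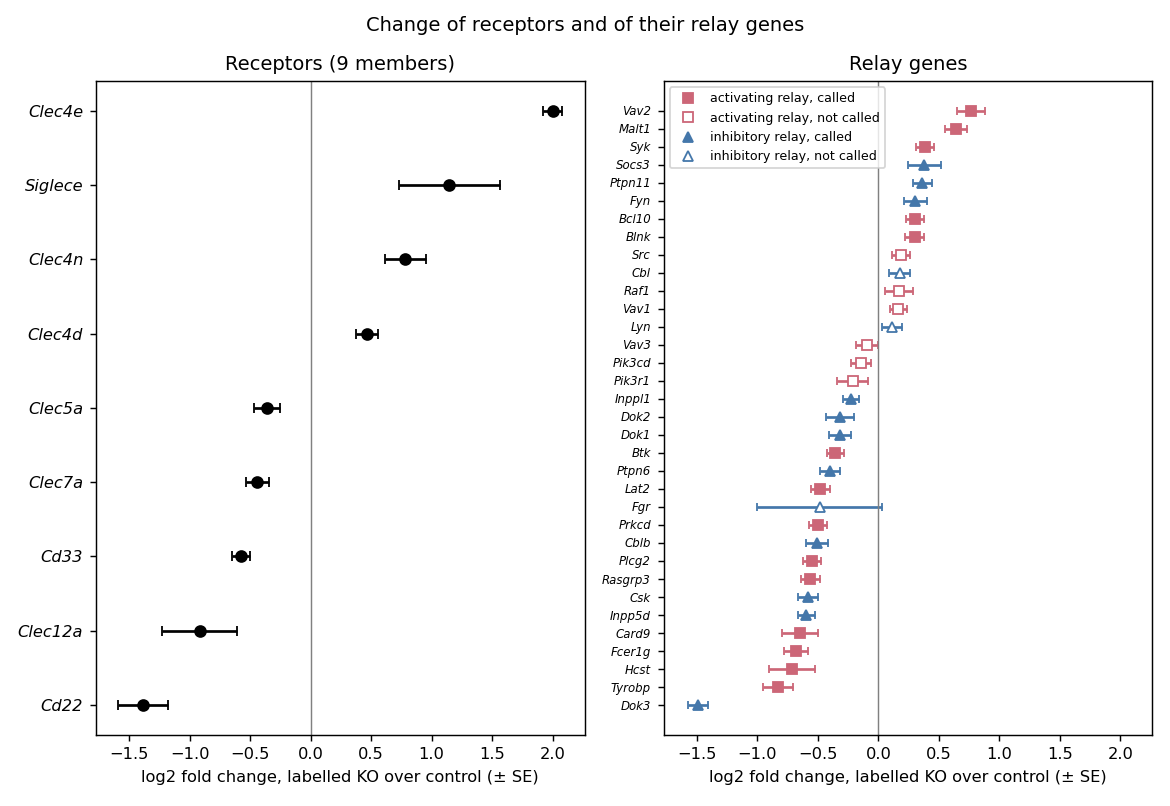
Log2 fold change of labelled Tfam knockout over control (± SE, edgeR) for the 9 receptors (left) and for the genes of the activating (squares) and inhibitory (triangles) relay (right). Of the relay genes, 1 is not shown. Filled relay symbols passed the test and open ones did not; the receptors run from -1.39 (Cd22) to 2.00 (Clec4e), and Tyrobp, Hcst, Fcer1g and Card9 lie together among the relay genes that fell.

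Other C-type lectins were called in both directions, as the receptors were, and the other Siglecs tested were not called. Of 54 other C-type lectin genes listed, 25 were in the table and 15 could be tested: 3 rose and 8 fell. Their median log2 fold change was -0.39, and 44.2% of all genes tested were called. Ly75 (DEC-205), an endocytic receptor, rose 6.58-fold (25, 26 and 6 counts in controls, 113, 129 and 102 in the knockout-labelled libraries). The activation marker Cd69 rose 3.65-fold, also from few reads (20, 9 and 13 counts in controls, 57, 27 and 56 in the others). Olr1, the oxidised lipoprotein receptor LOX-1, had 2, 1 and 0 counts in controls and 14, 22 and 13 in the knockout-labelled libraries (adjusted p = 0.000194, edgeR). It passed the count filter only through the knockout-labelled libraries, so this p-value is no independent support. Colec12, a scavenger receptor with a lectin domain, fell from 321 to 133 CPM and the galactose lectin Clec10a from 13.8 to 4.74 CPM. Klrd1, a natural killer cell receptor chain, went from 82, 37 and 16 counts to 2, 3 and 7 (log2 fold change -3.22). Likewise, it passed the filter only through the controls, where it is high. Of 6 other Siglecs, 3 were in the table and 2 could be tested. Siglec1 (33.6 and 32.9 CPM) and Siglec15 (4.74 and 4.26 CPM) did not pass with edgeR, 0 of the 2 had an unadjusted p below 0.05, and 0 passed with DESeq2.

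Over the windows of 10 genes on either side of each receptor, 18 other genes could be tested, of which 3 were called higher and 3 lower. The share called among all genes tested was 44.2%. Around Clec4n, Clec4d and Clec4e, 6 other genes were in the table and 3 could be tested, of which 0 were called by edgeR. These were Clec4a3 (3.23 and 3.21 CPM), Clec4a1 (0.503 and 0.886 CPM) and Necap1 (49.6 and 50.3 CPM), and Clec4a2, Clec4a4 and Clec4b1 had too few counts. Around Clec12a and Clec7a, 5 of 10 other genes in the table could be tested: Cd69 and Olr1 were higher and Klrd1 lower. Olr1 is the next gene to Clec7a, and the pair went in opposite directions. Both Olr1 and Klrd1 passed the count filter only through the group where they are high, which limits these calls. Cd69 also had few reads in controls, at 9 to 20 counts per library. Siglece lies close to Cd33 on chromosome 7, with 4 genes between them, and these Siglecs also differed in direction. Siglece, at 7 to 26 counts, likewise passed the filter only through the knockout-labelled libraries, so this difference is no independent support. Around Cd33 and Siglece, 1 of 4 other genes tested was called, Ctu1, a tRNA-modifying enzyme, as higher (0.82). The only called neighbour of Clec5a, Ssbp1, a mitochondrial DNA-binding protein, fell like the receptor (-0.76, 1 of 2 tested), and so did that of Cd22, Fam187b (-1.02, 1 of 4 tested).

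**Figure D4:**
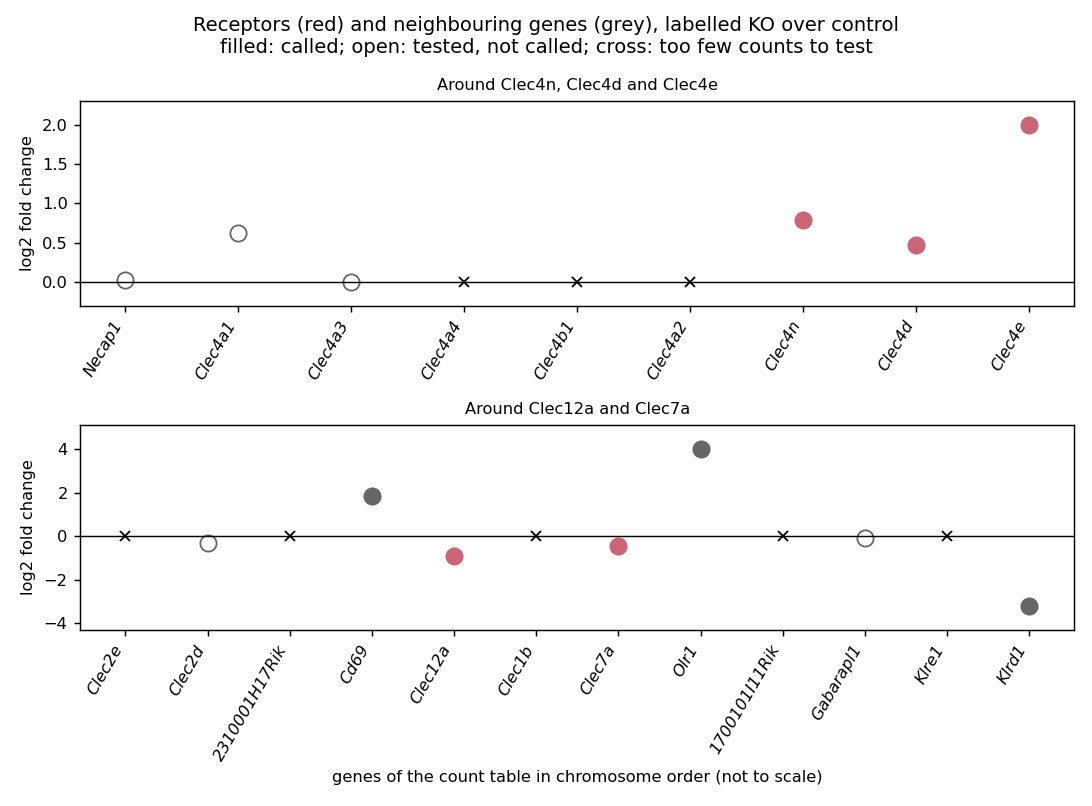
Log2 fold change of labelled Tfam knockout over control for the receptors (red) and their neighbours in the count table (grey), in chromosome order and not to scale. Clec4n, Clec4d and Clec4e at one end of their cluster were called higher, and Clec12a and Clec7a were called lower between Cd69 and Olr1, which were called higher; the fitted height of Olr1 rests on 3 reads over all controls and is no measured fold.

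The sialic acids that Siglecs bind are made from sugar precursors, activated by Cmas and attached by sialyltransferases. Of 26 such genes, 21 were in the table and 16 could be tested, of which 2 rose and 3 fell. Their median log2 fold change was -0.12, and 44.2% of all genes tested were called. St3gal1, which caps O-linked glycans, rose 3.94-fold, from 31.0 ± 0.376 to 122 ± 10.5 CPM (adjusted p = 8.75e-12, edgeR). St6galnac4 rose 1.20-fold. St3gal6 fell from 33.8 to 14.9 CPM (-1.17), Cmas by 0.43 on the log2 scale and St3gal2 by 0.27, the last a call lost with library totals and with limma on the deposited log2 table. Without labelled knockout replicate 1, 5 were called lower. St6gal1, which makes the sialic acid linkage that Cd22 prefers, was at 59.6 and 53.5 CPM and did not pass. Of 7 genes of sialic acid removal, 5 could be tested: Ctsa, the protective protein of the lysosomal sialidase, fell from 2084 to 1208 CPM (-0.79), and the sialidase Neu1 was at 158 and 172 CPM and did not pass. None of the 5 was higher with edgeR, with 0 at an unadjusted p below 0.05 in that direction and 0 with DESeq2, against 1 with library totals.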

How the data were processed

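RNA of 6 BV2 samples was sequenced from poly(A) libraries made with a NEBNext Ultra kit, per the labels' protocols. Per the submitters' processing notes, the authors used bcl2fastq 2.17, HISAT2 2.1.0, SAMtools 1.9 and featureCounts 2.0.0 on build GRCm39. The deposited count table holds raw whole-number counts, which the authors did not normalize, for 17872 genes with at least 6 counts in all. A second deposited table holds log2 values: each equals log2 of the count scaled to a common total, plus 8. How reads with several matches were treated: not given in the sources used here.

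The test was edgeR's quasi-likelihood test (edgeR 4.0.16, R 4.3.3) after filterByExpr and TMM scaling (no covariates, Benjamini-Hochberg adjustment over 13403 tested genes), which left 4469 genes untested. It was also run on simulated data with far fewer changed genes and a common dispersion, a simpler setting than these data. Each SE is the size of the log2 fold change divided by √F. The receptors and lists were chosen with earlier results of these data known. Named genes were Tfam, the 9 receptors and, per list, up to 6 called genes ranked by size of change (mean CPM 1 or more), plus all of a direction with 5 or fewer; others were picked with their values known. In the lists, 3 genes are counted but not reported here by name. For each receptor the 2 genes with the nearest pattern were taken from log2 CPM (prior count 2), centred per gene. Exon lengths came from GENCODE release M21 (GRCm38), where 99.5% of tested genes had one. The longest coding transcript was an added alternative. Similar transcripts were sought in it with BLAST 2.17.0 at 95% identity over at least 100 bases. Alternatives were DESeq2 1.42.0, limma-voom (limma 3.58.1), median-ratio factors, library totals, no filter, the replicate block, a stricter filter (5 CPM in 3 libraries), leaving out mitochondrial genes, limma on the log2 table, and each library left out.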

Additional observations from a re-analysis of the deposited data

How the results depend on the processing

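The 9 receptors kept their direction in all 133 values obtained under 15 alternatives, and their side of the threshold in 116. Calls were lost for Clec5a with library totals (-0.26) and limma on the deposited log2 table (-0.25), and for Siglece with no filter (1.15), DESeq2 (1.15) and the replicate block (1.14). With single libraries left out, log2 fold changes ran from -0.45 to -0.29 for Clec5a, -1.31 to -0.71 for Clec12a and 1.07 to 1.28 for Siglece, with some calls lost, and the number of receptors called lower ran from 3 to 4. Over the same fits, 2 to 4 inhibitory relay genes were called higher and 3 to 5 sialic acid synthesis genes lower. With library totals, and likewise with the deposited log2 table, 5 inhibitory relay genes were called lower and 1 sialic acid removal gene higher. With the 5 CPM filter, which leaves fewer genes tested and drops Clec12a and Siglece, 1 other C-type lectin was called higher. Elsewhere the cause was not tested. Library totals shifted the all-gene median log2 fold change by 0.1 and raised the share of higher genes among all calls from 48.2% to 61.8%.

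The replicate numbers did not pair the samples: deviations of same-numbered libraries from their group means correlated at -0.104, -0.114 and 0.0395, and 2 of 6 libraries correlated best with their own number. With the replicate block 5255 genes were called, against 5926 without it, and 3 receptors were called higher and 5 lower. Depth limits Siglece and Clec12a, at 7 to 84 counts per library.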

Other observations

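Over the 6 libraries, the genes outside the receptors with the nearest pattern of log2 CPM, centred on each gene's mean, were these. For Clec4e they were Ptgs2, the inducible cyclooxygenase (distance 0.182), and Nfkbia, the NF-kB inhibitor I-kappa-B alpha (0.246), with log2 fold changes of 2.08 and 1.91. For Clec4d they were Akirin2 (0.123) and the chemokine Ccl3 (0.134), and for Clec4n the muramyl dipeptide sensor Nod2 (0.166) and Endov (0.171). Clec7a was nearest to the calcium channel Orai1 (0.062) and the peptidoglycan sensor Nod1 (0.0689). Cd33 was nearest to the phosphatase Ptpre (0.0836) and the selectin ligand Selplg (0.088), Clec5a to Cd48 (0.123) and Ucn2 (0.137), and Cd22 to Unc13a (0.169) and Pyroxd2 (0.18). Among the low-count receptors, Clec12a was nearest to Mst1r (0.317) and Nhsl2 (0.349), and Siglece to Mllt11 (0.202) and Zbtb5 (0.227). With 2 groups of 3 libraries, such distances mostly follow the difference between the groups and are a description only.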
